A study of Culter alburnus with 9 samples.

Results

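The genes described here are the myogenic regulatory factors and the satellite cell genes of the topmouth culter (Culter alburnus), a freshwater fish with intermuscular bones, in trunk muscle that differed in runx2b genotype. They were chosen by gene name: 10 names (PAX7, pax3, myf5, myod1, MYOG, myf6, mef2a, mef2c, mef2d and mymk) were sought, with or without the paralog suffix a or b, among the Swiss-Prot names the deposited table gives its loci. This gave 14 of the 29791 loci in the table, and every name had at least 1 locus. The rule itself used names and no measured value.

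RNA was sequenced from F1 juveniles aged 2 months, 3 homozygous runx2b mutants (Ho), 3 heterozygous mutants (He) and 3 wild-type fish (Ctrl), with 1 library per fish. The F1 fish came from F0 founders that had been edited by CRISPR/Cas9 and crossed within the same mutation type, were reared alike and received no treatment. The fish were picked for similar body size and for a skeletal phenotype typical of their genotype, and the dissected tissue was myoseptum with the muscle around it rather than pure myoseptum. The comparisons ask whether carrying 1 or 2 mutated copies of runx2b, a transcription factor of the osteoblast lineage, goes with a change in the muscle transcripts.

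Skeletal muscle is built by a cascade of transcription factors. Pax3 and Pax7 mark muscle progenitors, and Pax7 is the classic marker of satellite cells, the stem cells that lie against adult fibres. Myf5 and MyoD commit progenitors to the myogenic lineage, myogenin drives terminal differentiation, Myf6 (also called Mrf4) is the family member that stays abundant in grown fibres, and the Mef2 proteins work with all of them on muscle genes. Fusion of myoblasts then needs the membrane protein myomaker, the product of mymk. In teleosts new fibres are still added after hatching, so satellite cell and differentiation genes are both to be looked for in juvenile muscle.

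Libraries held 15869087 to 21009448 estimated counts, of which the top 10 genes made up 40.1% to 52.4%. Values per fish are given as CPM, counts scaled to a common library size by the TMM method of edgeR, for comparisons of a gene between fish, and as TPM, which is also scaled by transcript length, for comparisons of genes with each other. The edited gene runx2b (ABG768_014534, chromosome 20, 33043703 to 33074321) had 11, 5 and 2 counts in the 3 Ho fish, 0, 8 and 3 in the 3 He fish and 11, 27 and 0 in the 3 Ctrl fish, too few to check the genotypes. Skeletal muscle markers dominated all libraries and 5 heart muscle markers together stayed at or below 0.382 CPM. The summed CPM of the skeletal muscle markers was 251388 to 340235 in Ho, 261793 to 455972 in He and 202513 to 368141 in Ctrl, where Ctrl 1 and Ctrl 2 had the lowest sums of all fish (202595 and 202513). Skin markers summed to 503 to 1236 CPM in Ho, 225 to 435 in He and 441 to 3022 in Ctrl, and the highest value was again that of Ctrl 1. Markers of fibroblasts and myoseptum summed to 13051 CPM in He 3, against 2557 to 9133 in the other 8 fish. Neural crest and pigment markers, of cells that can also use pax3 and pax7, summed to 10.4 to 13.6 CPM in Ho, 9.74 to 12.7 in He and 14.04 to 14.6 in Ctrl, so that both mutant groups lay below Ctrl without overlap, and their part in the pax3 and pax7 values was not tested. Red blood cell markers summed to 24.5 to 230.4 CPM in Ho, 28.8 to 99.3 in He and 15.4 to 251 in Ctrl.

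Positions below are on the genome assembly ASM4018292v1, the one the reads were aligned to, and paralog letters come from the best protein match in the table. PAX7 had 2 loci, pax7a (ABG768_003945, chromosome 11, 29774038 to 29836080) and pax7b (ABG768_016403, chromosome 22, 22780018 to 22842218). The pax3 loci were pax3a (ABG768_013511, chromosome 2, 41460463 to 41487312) and pax3b (ABG768_007217, chromosome 15, 6824969 to 6845884). The MyoD family had 1 locus each: myod1 (ABG768_018429, chromosome 24, 24570484 to 24571880), myog (ABG768_003626, chromosome 11, 18627516 to 18630207), myf5 (ABG768_021266, chromosome 4, 18044799 to 18047701) and myf6 (ABG768_021265, chromosome 4, 18035661 to 18037548). The last pair were neighbours with 7250 bases between them, the arrangement these genes also have in mammals. The mef2 genes had 5 loci: mef2aa (ABG768_011122, chromosome 18, 34619612 to 34726975), a second mef2a locus (ABG768_024759, chromosome 7, 7103665 to 7131881), mef2ca (ABG768_002986, chromosome 10, 54404347 to 54452778), mef2cb (ABG768_022504, chromosome 5, 19342712 to 19393965) and mef2d (ABG768_008887, chromosome 16, 26591514 to 26641348). The mymk locus (ABG768_022418) lay on chromosome 5, 15795598 to 15799992. Whether the authors' counting can split reads between such paralogs is not given in the sources used here.

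The 14 loci covered a wide range of levels per transcript length. The mef2 genes stood highest, with a mean TPM over the 9 fish of 55.0 for mef2ca and 42.5 for mef2aa. The MyoD family members myod1, myf6 and myog followed, with a mean TPM of 21.8 for myod1, 14.1 for myf6 and 12.6 for myog. Below them came mef2d (7.23 TPM), mef2cb (5.0 TPM) and myf5 (2.18 TPM), and then the satellite cell genes pax7b (0.818 TPM) and pax7a (0.613 TPM). The last 4 loci had mean TPM values of 0.271 for mymk, 0.211 for the second mef2a locus, 0.17 for pax3b and 0.14 for pax3a. Neighbours in this order were compared within each fish by an exact sign-flip permutation test, two-sided and adjusted over 13 pairs, for which the smallest unadjusted p possible is 0.00391. The pairs were set by the means of the same 9 fish, so their choice was not independent of the test. The steps from mef2ca down to myf6, from myog to mef2d and on to pax7b passed, with adjusted p from 0.0127 to 0.0435. The order of myf6 and myog was not resolved (adjusted p = 0.521), nor that of pax7b and pax7a (adjusted p = 0.102) or of any locus below pax7a (adjusted p from 0.102 to 0.938).

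**Figure D1:**
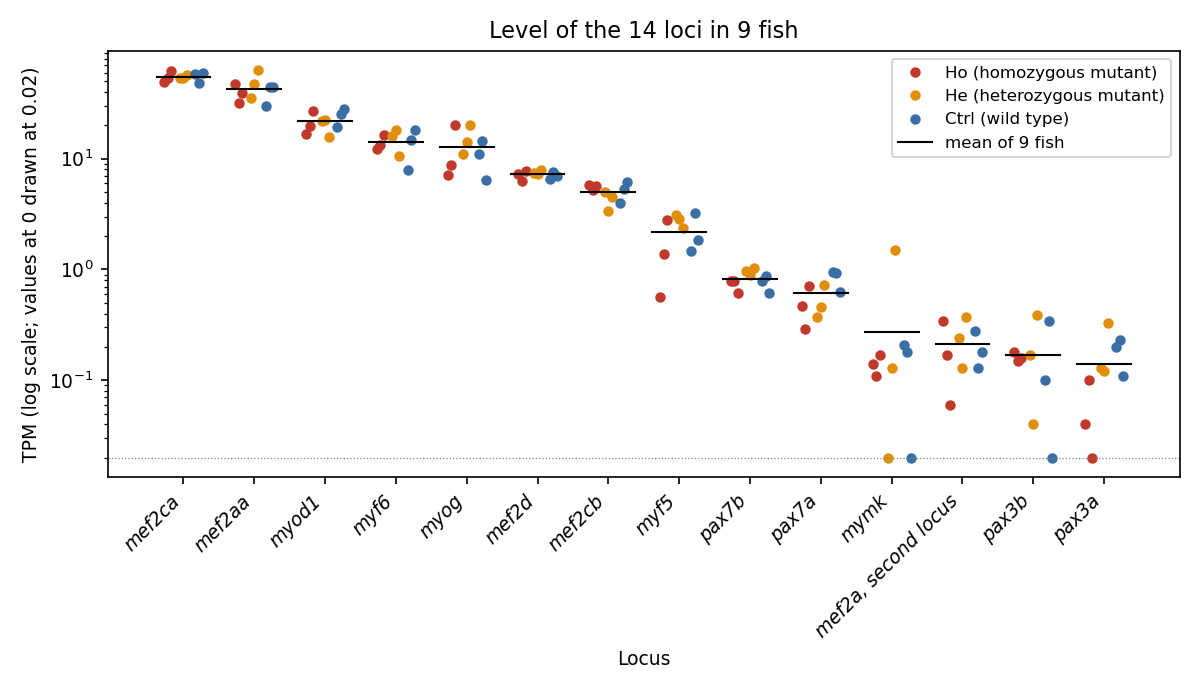
TPM (log axis) of the 14 loci in each of the 9 fish, ordered by the mean over all fish (black bar), with Ho, He and Ctrl fish side by side; a value of 0 is drawn on the dotted line. In every fish mef2ca, mef2aa, myod1, myf6, myog and mef2d lie at or above 6.31 TPM, while the pax3 loci, the second mef2a locus and mymk lie at or below 0.39 TPM except for mymk in He 3 (1.5 TPM).

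The filter on low counts kept 10 of the 14 loci. The pax3 loci, whose products act upstream of the MyoD family in the embryo, did not pass. pax3a had 1, 2 and 0 counts in the Ho fish, 3, 3 and 7 in the He fish and 4, 4 and 2 in the Ctrl fish. pax3b had 4, 3 and 3 counts in Ho, 4, 1 and 8 in He and 2, 6 and 0 in Ctrl. Both were thus near the limit that a count of 0 allows, 3 counts in a library or 0.132 to 0.223 CPM, which covers counting error only. The second mef2a locus had 7, 3 and 1 counts in Ho, 5, 3 and 7 in He and 5, 2 and 3 in Ctrl. For pax3a every Ho fish (at most 0.115 CPM) lay below every He and Ctrl fish (at least 0.132 CPM), on 0 to 2 counts per Ho fish. Without the filter, edgeR gave pax3a a log2 fold change of -1.46 in Ho against Ctrl and -2.06 in Ho against He, with adjusted p of 0.835 and 0.804. A difference between genotypes in these 3 loci was not resolved at this depth.

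The mymk locus was also left out by the filter, and its reads came mostly from 1 fish. It had 3, 2 and 3 counts in the Ho fish, 0, 3 and 30 in the He fish and 4, 3 and 0 in the Ctrl fish. He 3, with 30 counts and 1.91 CPM, thus held more mymk reads than the other 8 fish together, none of which passed 0.202 CPM. The same fish had the highest myog of all 9 (28.6 CPM), while its myod1 (13.4 CPM) and myf6 (13.7 CPM) were the lowest of the He fish. It was also the fish with the highest sum of fibroblast and myoseptum markers, and the part of that in the mymk value was not tested.

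pax7b, a satellite cell gene, separated the He fish from all others. Its CPM was 2.84, 2.70 and 2.35 in Ho, 4.83, 2.95 and 4.20 in He and 2.13, 2.11 and 2.45 in Ctrl. Every He fish lay above every Ho and every Ctrl fish, by a narrow margin for He 2 and Ho 1, and the Ho and Ctrl fish overlapped. The same separation was seen in TPM, with 0.79, 0.78 and 0.61 in Ho, 0.97, 0.89 and 1.04 in He and 0.79, 0.88 and 0.61 in Ctrl. The log2 fold change of pax7b was 0.84 in He against Ctrl (standard error 0.25, 95% confidence interval 0.27 to 1.40) and -0.59 in Ho against He (standard error 0.25, 95% interval -1.16 to -0.03). Neither passed the test once adjusted over all loci: unadjusted p was 0.0082 and 0.0406, and adjusted p was 0.359 and 0.73 (edgeR quasi-likelihood test, Benjamini-Hochberg). Ho against Ctrl gave 0.24 (standard error 0.25, adjusted p = 0.912). In He against Ctrl the value was smaller on other scales, at 0.40 with library totals, 0.32 on log2 of TPM plus 0.1 and 0.16 on log2 of TPM plus 1.

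Its paralog pax7a did not share this pattern. It had 0.59, 0.345 and 0.94 CPM in Ho, 0.639, 0.529 and 1.02 in He and 0.889, 0.762 and 0.891 in Ctrl, on 6 to 20 counts per fish. The genotypes overlapped in all 3 comparisons. Its log2 fold change was -0.22 in He against Ctrl and -0.44 in Ho against Ctrl (standard error 0.47 in both), with adjusted p of 0.9 and 0.912 from edgeR. In bulk tissue, fewer cells of a type and less RNA per cell cannot be told apart for either paralog or for any other gene below.

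Among the MyoD family, myog, the differentiation factor, was higher in He than in Ctrl in every fish. It stood at 9.07, 10.6 and 26.9 CPM in Ho, 19.3, 16.3 and 28.6 CPM in He and 10.3, 12.1 and 9.14 CPM in Ctrl. The Ho group held both a fish near the top (Ho 3) and 2 fish in the Ctrl range. In He against Ctrl the difference was 1.02 on the log2 scale (standard error 0.40, 95% interval 0.12 to 1.93), with an unadjusted p of 0.0307 and an adjusted p of 0.42 (edgeR). In TPM the He and Ctrl fish overlapped, with 11.1, 14.1 and 20.4 in He against 11.01, 14.5 and 6.47 in Ctrl. In Ho against Ctrl myog gave 0.56 (standard error 0.40, adjusted p = 0.874), and it was -0.09 without Ho 3.

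myf5, a determination factor, spread most of the 10 loci between fish of 1 genotype. It had 0.59, 1.38 and 3.16 CPM in Ho, 4.48, 2.78 and 2.80 in He and 1.16, 2.24 and 2.15 in Ctrl. He did not overlap Ctrl in CPM, while Ho spanned the range of Ctrl on both sides. In TPM, He (3.09, 2.85 and 2.37) and Ctrl (1.48, 3.22 and 1.83) overlapped. The log2 fold change of myf5 was 0.86 in He against Ctrl (standard error 0.53) and -0.98 in Ho against He (standard error 0.54), with adjusted p of 0.599 and 0.748 from edgeR. Without Ho 3 the value in Ho against He was -1.78. In Ho against Ctrl the log2 fold change was -0.12 with all fish and -0.90 without Ho 3.

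myod1, the other determination factor, had means that lay close together. It stood at 12.7, 14.2 and 21.7 CPM in Ho, 22.9, 15.6 and 13.4 in He and 10.8, 12.6 and 23.8 in Ctrl, so that each genotype had 1 fish above 21 CPM. The log2 fold changes were 0.14 in He against Ctrl, 0.05 in Ho against Ctrl and -0.09 in Ho against He (standard error 0.35 each), and their 95% intervals together ran from -0.88 to 0.93. With library totals or on TPM all 3 turned sign, so myod1 had no stable direction. myf6, its relative of mature fibres, had 13.5, 14.6 and 20.96 CPM in Ho, 25.9, 19.1 and 13.7 in He and 6.53, 10.98 and 21.9 in Ctrl. The high fish were those high in myod1 (Ho 3, He 1 and Ctrl 3), and all genotypes overlapped. In He against Ctrl it differed by 0.58 on the log2 scale (standard error 0.42, adjusted p = 0.654 from edgeR), by 0.25 without Ctrl 1 and by 1.18 without Ctrl 3.

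**Figure D2:**
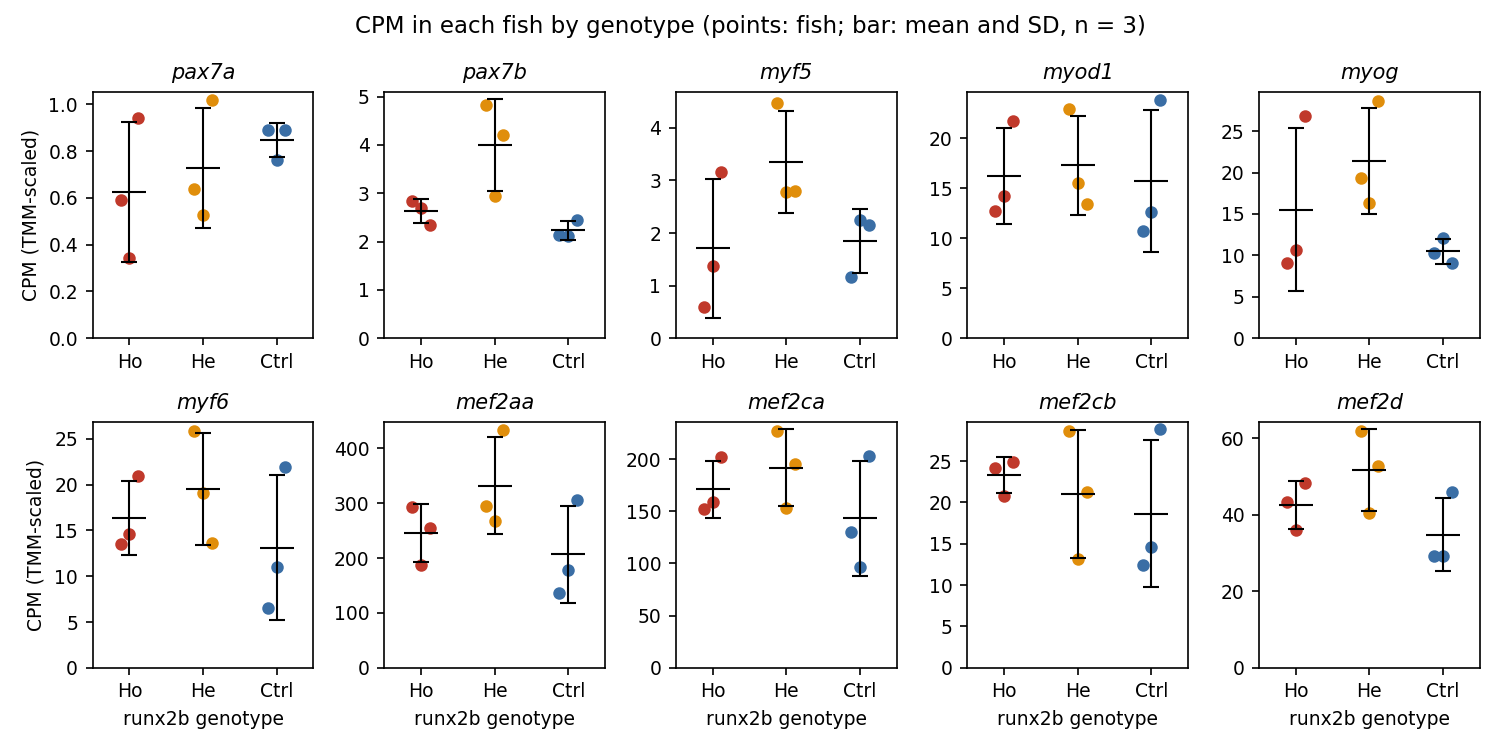
TMM-scaled CPM of the 10 loci that passed the filter, by runx2b genotype; points are fish, and the bars give the mean and SD of 3 fish. In pax7b the 3 He fish (2.95 to 4.83 CPM) lie above all others, and in myod1, myf6 and all the mef2 loci Ctrl 3 lies well above Ctrl 1 and Ctrl 2.

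The mef2 genes, whose products act with the MyoD family on muscle promoters, had means that were highest in He at 3 of the 4 tested loci. mef2aa stood at 293, 188 and 255 CPM in Ho, 295, 268 and 433 in He and 136, 179 and 306 in Ctrl. In He against Ctrl it differed by 0.68 on the log2 scale (standard error 0.34, adjusted p = 0.532 from edgeR). mef2d had 43.3, 36.0 and 48.3 CPM in Ho, 62.0, 40.5 and 52.8 in He and 29.3, 29.2 and 45.9 in Ctrl, with 0.57 (standard error 0.27, adjusted p = 0.494) in the same comparison. In both, the overlap of He with Ctrl came from Ctrl 3. mef2ca had 152, 159 and 202 CPM in Ho, 227, 153 and 195 in He and 130, 96.4 and 203 in Ctrl, a log2 fold change of 0.42 in He against Ctrl. Without Ctrl 3 this value was 1.10 for mef2aa and 0.78 for mef2ca, without Ctrl 1 it was 0.45 for mef2aa, and without Ctrl 2 it was 0.20 for mef2ca. mef2cb was the exception to the order, with a mean of 23.3 ± 2.18 CPM in Ho, 21.01 ± 7.75 in He and 18.6 ± 8.88 in Ctrl (SD, n = 3 each).

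On the TPM scale mef2aa, mef2ca and mef2d differed less between genotypes, and mef2cb did not. For mef2cb Ho (5.77, 5.2 and 5.64 TPM) lay above He (5.0, 3.39 and 4.52 TPM) without overlap, while the 2 groups overlapped in CPM. The share of all loci without overlap in TPM was not counted. On log2 of TPM plus 1 mef2aa kept a difference of 0.28 in He against Ctrl, with a mean of 48.5 ± 14.05 TPM in He and 39.4 ± 8.34 in Ctrl (SD, n = 3 each), and mef2cb turned to -0.21. mef2ca averaged 55.1 ± 6.13 TPM in Ho, 54.7 ± 1.57 in He and 55.1 ± 5.86 in Ctrl, and mef2d averaged 7.11 ± 0.709, 7.57 ± 0.298 and 7.02 ± 0.493 TPM in Ho, He and Ctrl (SD, n = 3 each). Across all 9 fish the highest mef2ca value was 1.28 times the lowest in TPM, against 2.35 times in CPM, and for mef2d the ratios were 1.25 and 2.12. TPM are scaled to an equal sum in each library, whereas TMM factors ran from 0.708 in He 1 to 1.40 in Ctrl 2.

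Across the family, edgeR called none of the 10 tested loci in any comparison, and of all 14755 tested loci it called 0.0% in each of the 3 comparisons. DESeq2 called 0 of the 10 in each, where it called 1.48%, 0.381% and 0.0848% of all loci it tested. limma on log2 TPM called 0 of the 10 as well, but the share of all loci it called was not counted. In He against Ctrl, 2 of the 10 had an unadjusted p under 0.05 in edgeR, both higher (pax7b and myog), against 4.13% of all loci higher and 6.3% lower. DESeq2 gave 3 of the 10 with an unadjusted p under 0.05, against 7.76% of all loci, and limma on TPM 0, against 15.9%. The DESeq2 shares at this threshold, here and below, are over 24353 loci without the filter on low counts that the 10 had passed. He lay above Ctrl without overlap at 3 of the 10 (pax7b, myf5 and myog), against 6.28% of all loci. In Ho against Ctrl, 0 of the 10 had an unadjusted p under 0.05 in edgeR, DESeq2 or limma, where edgeR had 3.59% of all loci higher and 2.91% lower, DESeq2 5.12% and limma 7.63%, and 0 lacked overlap, against 11.2%. In Ho against He, 1 locus, pax7b, had an unadjusted p under 0.05 in edgeR (0 in DESeq2, against 5.24% of all loci, and 0 in limma, against 3.25%) and was lower in Ho, against 2.79% of all loci lower and 4.0% higher. It was also the 1 locus where Ho lay below He without overlap, against 6.23% of all loci.

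The log2 fold changes of the family were mostly above 0 in He against Ctrl (9 of 10, median 0.58) and in Ho against Ctrl (8 of 10, median 0.25), and below 0 in Ho against He (9 of 10, median -0.27). Over all tested loci 49.3%, 48.5% and 51.4% were above 0 in these comparisons, with medians of -0.01, -0.01 and 0.01. Each comparison shares a group of fish with the others, so the 3 counts are not separate evidence. The medians moved with single fish. He against Ctrl was 0.89 without Ctrl 3. It was 0.40 without He 1 and 0.40 without Ctrl 1, each with 7 of 10 above 0. Ho against Ctrl was 0.06 with 6 of 10 above 0 without Ctrl 1, and 0.12 with 6 of 10 without Ho 3. It was 0.16 without Ctrl 2 and 0.50 without Ctrl 3. Ho against He was -0.49 without Ho 3 and -0.43 without He 2, but -0.18 without Ho 2 and -0.21 without Ho 1. With libraries scaled by their totals in place of TMM, the median of all tested loci moved by -0.40, -0.23 and 0.17, and 7, 7 and 3 of the 10 loci were then above 0. Counted against that moved median, 9, 8 and 1 of the 10 were above it, the same numbers as with TMM. On log2 of TPM plus 1, 6, 5 and 3 were above 0, and 9, 7 and 1 were above the median of all loci.

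**Figure D3:**
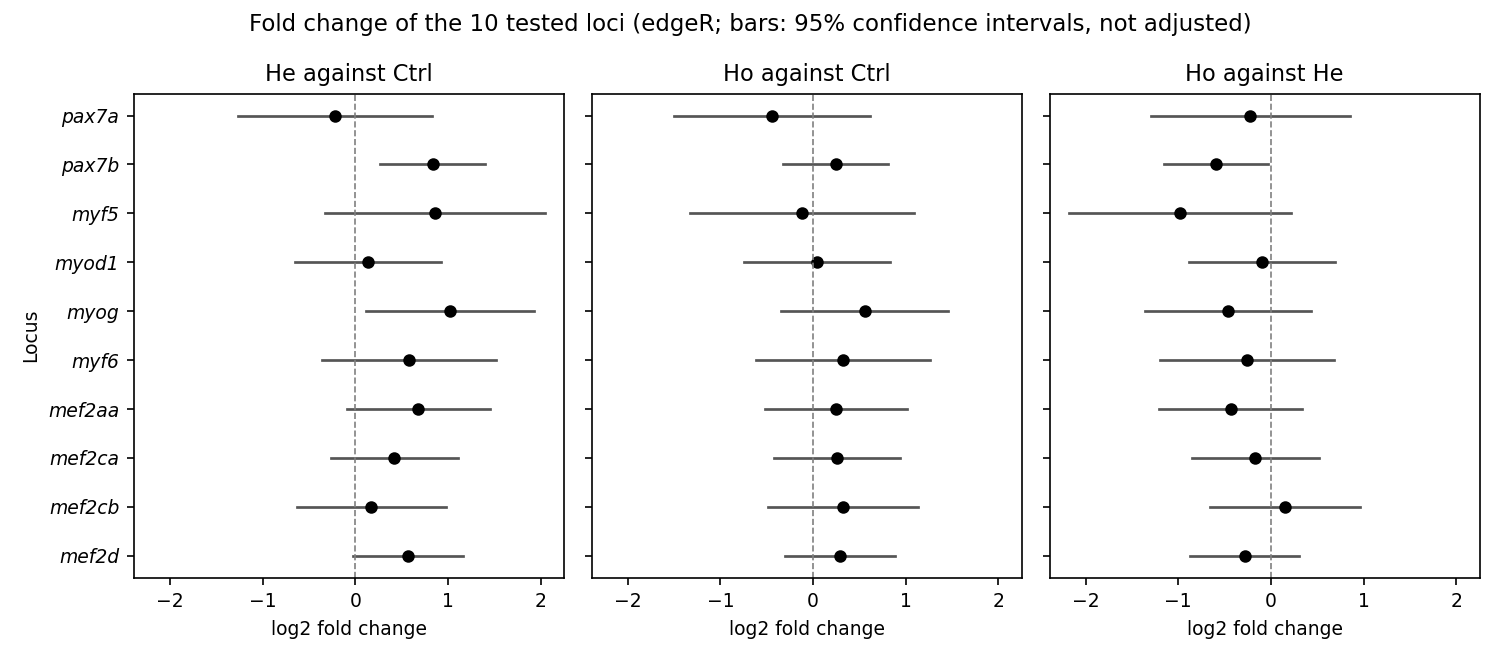
Log2 fold change (x axis) of the 10 tested loci in He against Ctrl, in Ho against Ctrl and in Ho against He, from left to right; dots are edgeR estimates and bars their 95% confidence intervals, not adjusted for the number of loci. Only the intervals of pax7b (0.27 to 1.40) and myog (0.12 to 1.93) in He against Ctrl and of pax7b (-1.16 to -0.03) in Ho against He leave out 0, and no locus passed the adjusted test.

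The balance between the factors was compared within each fish as a log2 ratio of TPM, by an exact permutation test over all 1680 ways to place 9 fish in 3 groups (smallest possible p 0.00357, two-sided). The ratio of myog to both PAX7 loci, differentiation against satellite cells, averaged 3.06 ± 0.72 in Ho, 3.24 ± 0.25 in He and 2.61 ± 0.33 in Ctrl (SD, n = 3 fish each, exact permutation p = 0.336). The ratio of myf6 to myod1 averaged -0.58 ± 0.13 in Ho, -0.45 ± 0.14 in He and -0.89 ± 0.34 in Ctrl (exact permutation p = 0.0643, 0.171 adjusted over the 3 ratios). Ctrl 1 had the lowest value of all (-1.28), and on the CPM scale the same exact permutation test gave p = 0.0107, not adjusted over the 3 ratios. The ratio of myf5 to myod1 was -4.67, -3.75 and -3.22 in the 3 Ho fish, -2.79, -2.92 and -2.68 in the 3 He fish, the narrowest group, and -3.61, -2.93 and -3.87 in the 3 Ctrl fish. All He fish lay above all others in this ratio, with Ctrl 2 the nearest, but the 3 genotypes were not told apart (exact permutation p = 0.114, adjusted 0.171).

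Pairs were tested from fish to fish among pax7b and the 4 MyoD family genes, 10 in all, and myod1 with myf6 had the highest correlation of them. Over the 9 fish the correlation of their log2 CPM was r = 0.90 (exact permutation p = 4.13e-05, adjusted over 10 pairs p = 0.000413), and rho was 0.98 (adjusted exact permutation p = 0.000496). Without Ctrl 3 and He 1, the fish farthest from the median of myod1, r was 0.86, and r was 0.95 on deviations from the genotype means. On the TPM scale r fell to 0.71 and the pair no longer passed (adjusted exact permutation p = 0.224). The neighbours myf5 and myf6 did not pass (r = 0.60, rho = 0.63, adjusted exact permutation p = 0.217 for r). For myf5 and myog r was 0.73 (adjusted exact permutation p = 0.117) and rho 0.88 (adjusted exact permutation p = 0.0154). None of the 4 pairs with pax7b passed, with r from 0.28 to 0.52 (adjusted exact permutation p from 0.295 to 0.461). On the TPM scale they did not pass either (adjusted exact permutation p from 0.27 to 0.731), and 2 turned sign. There r with pax7b was -0.61 for myod1, -0.28 for myf6, 0.22 for myf5 and 0.34 for myog.

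**Figure D4:**
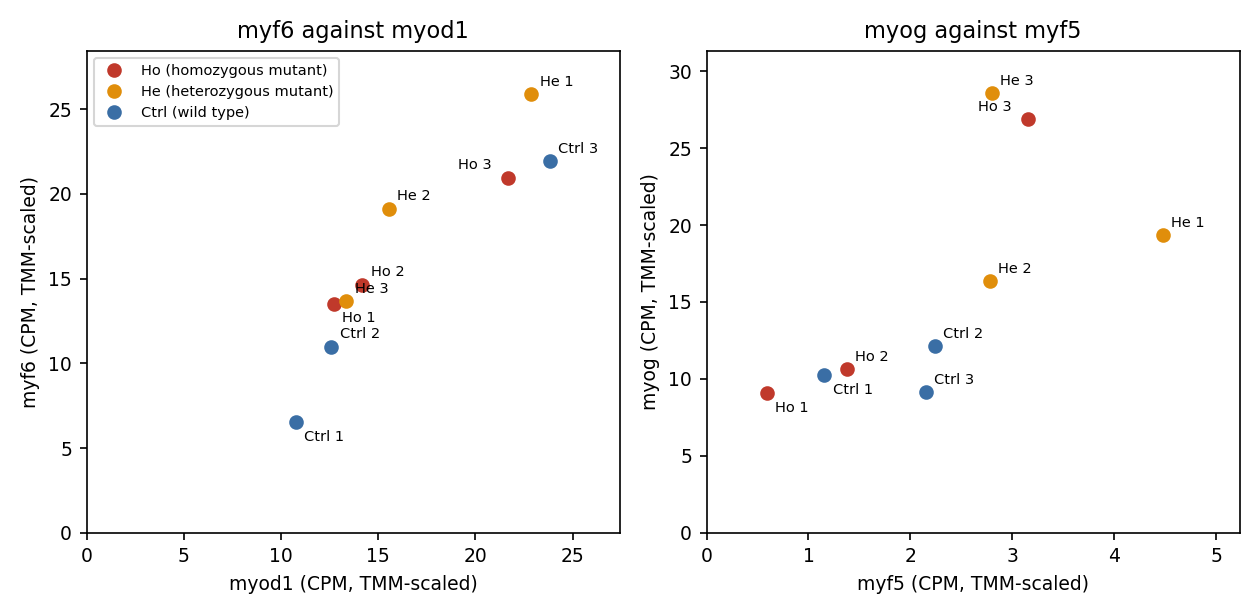
TMM-scaled CPM in each of the 9 fish, myf6 against myod1 (left) and myog against myf5 (right), coloured by genotype and labelled by fish. On the left the fish form a single rising band (r = 0.90 on log2 CPM) with fish of all genotypes along it. On the right He 3 and Ho 3 lie highest in myog, at 2.80 and 3.16 CPM of myf5, where only He 1 is higher (4.48 CPM).

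These levels were also set beside the summed skeletal muscle markers, which differed between the fish as given above, with 10 tests added after the data had been seen. On the TMM scale 7 of the 10 loci correlated with the marker sum over the 9 fish (adjusted exact permutation p from 0.000689 to 0.0459), led by mef2d (r = 0.97, rho = 0.93) and mef2ca (r = 0.93, rho = 0.93), with 0.93 and 0.95 when the 2 fish farthest from the median sum were left out. The remaining 5 were mef2cb, myf6, myod1, mef2aa and pax7b, with r from 0.71 to 0.86 (rho 0.58 to 0.88). For pax7b r dropped to 0.35 without those 2 fish, He 1 and Ctrl 2, so the relation rests on them. pax7a (r = 0.17), myf5 (r = 0.52) and myog (r = 0.45) did not pass. Both quantities carry the scaling factor of their library: with libraries scaled by their totals 0 of the 10 loci passed, with r from -0.28 to 0.64 and adjusted exact permutation p from 0.614 to 0.925. The part of muscle content in the differences between genotypes was not tested.

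**Figure D5:**
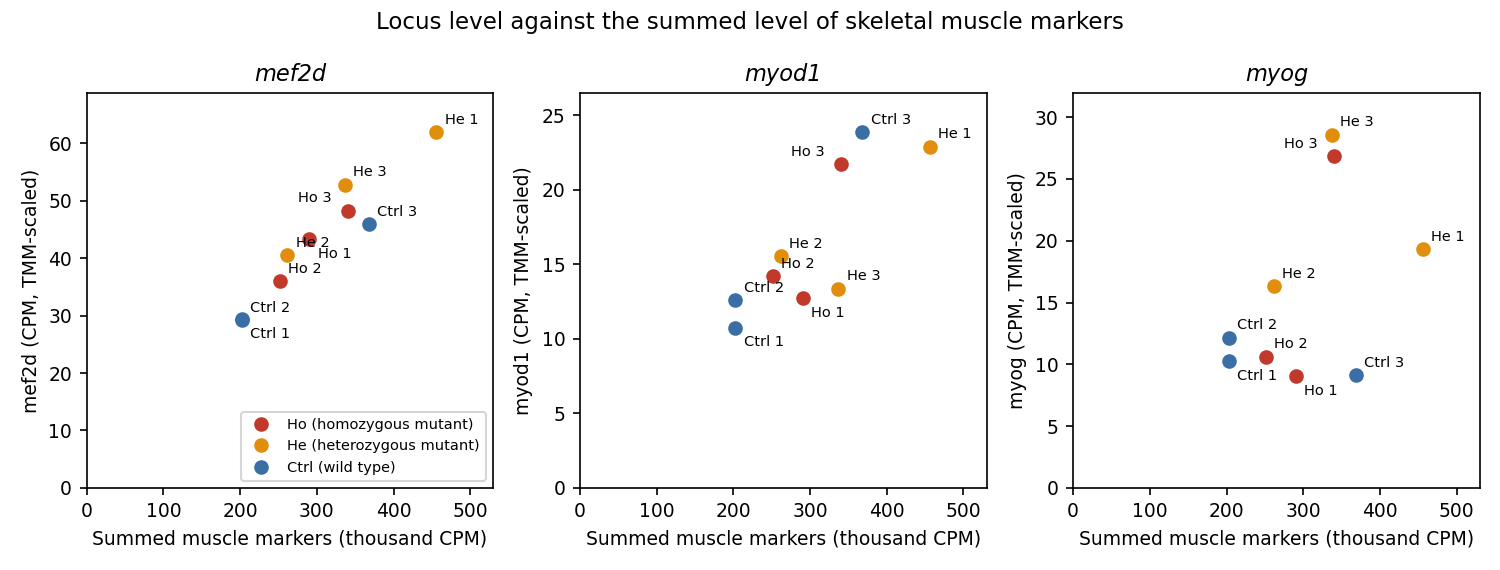
TMM-scaled CPM of mef2d, myod1 and myog against the summed CPM of skeletal muscle markers (axis in units of 1000 CPM) in each of the 9 fish, coloured by genotype and labelled by fish. mef2d follows the marker sum closely (r = 0.97), and myog does not (r = 0.45), with He 3 and Ho 3 well above the other fish of similar marker sum.

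Residual spread within genotypes set apart the members further. The SD of log2 CPM around the genotype means was 0.23 for pax7b and 0.31 for mef2d, against a median of 0.41 over all tested loci. The 1000 loci nearest to these 2 in level had a median of 0.39 and 0.36. The SD was 0.74 for myf5, 0.60 for myf6, 0.55 for myog and 0.48 for myod1, where the 1000 loci nearest to each in level had a median of 0.42, 0.32, 0.32 and 0.32. The 4 genes of the MyoD family thus varied more between fish of 1 genotype than the median locus of their level, which widened their intervals. They were not alone in this: mef2cb (0.50 against 0.33) and mef2aa (0.45 against 0.37) also lay above that median. mef2ca lay close to it (0.38 against 0.37) and pax7a below it (0.43 against 0.61).

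Other genes of the pathway were taken from 6 lists matched by name, and 0 of their loci passed the adjusted test in edgeR or DESeq2 in any comparison. Partners and inhibitors of the MyoD family had 18 tested loci, of which 2 were higher and 2 lower at an unadjusted p under 0.05 in He against Ctrl (edgeR), and 1 higher and 1 lower in each of the other comparisons. For all lists, the shares of all tested loci under this threshold are those given above: 4.13% higher and 6.3% lower in He against Ctrl, 3.59% higher and 2.91% lower in Ho against Ctrl, and 4.0% higher and 2.79% lower in Ho against He. The locus with the smallest p in this list is named TWIST2 by Swiss-Prot and twist1a by its nearest fish protein (ABG768_012308), and belongs to a family of bHLH factors that hold MyoD back in mouse cells. It had 3.92, 2.93 and 3.16 CPM in Ho, 1.92, 2.82 and 4.33 in He and 1.33, 1.21 and 1.19 in Ctrl, so that both mutant groups lay above Ctrl without overlap. The log2 fold change was 1.27 in He against Ctrl and 1.42 in Ho against Ctrl (standard error 0.33 each), with adjusted p of 0.359 and 0.64 from edgeR and 0.0771 and 0.0725 from DESeq2. Of the 18 loci, 1 lay above and 1 below Ctrl without overlap in He, and 2 above and 2 below in Ho. Over all loci 6.28% lay above Ctrl in He, and 11.2% lay apart from Ctrl in either direction in Ho. The share of all loci below Ctrl in He is not given here, so that count of 1 cannot be judged. SNAI2 (ABG768_017094), a zinc finger repressor, had 3.00, 3.45 and 3.76 CPM in Ho, 2.84, 5.24 and 2.99 in He and 7.02, 8.74 and 4.90 in Ctrl. In Ho against Ctrl it differed by -1.02 on the log2 scale (standard error 0.31, adjusted p = 0.704 from edgeR).

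Satellite cell surface and niche genes had 23 tested loci, with 1 higher and 2 lower at an unadjusted p under 0.05 in He against Ctrl, 1 higher and 2 lower in Ho against Ctrl and 3 higher in Ho against He. Over all loci these shares were 2.79% to 6.3% in a direction. Of the 23 loci 11 were above 0 in He against Ctrl, and the median was -0.07, which turned sign without He 1, He 3 or Ctrl 2. The 15 tested myoblast fusion loci had a median log2 fold change of -0.32 in He against Ctrl (-0.12 without Ctrl 2, -0.17 without Ctrl 1 and -0.19 without He 1) and of -0.17 in Ho against Ctrl (-0.03 without Ctrl 2, -0.09 without Ctrl 1 and -0.34 without Ctrl 3). In Ho against He it was 0.05, and -0.17 without Ho 2, and it was also below 0 without He 1, He 2 or Ho 3. Of the 15 there were 1 lower in He against Ctrl, 1 higher in Ho against Ctrl and 2 higher in Ho against He at an unadjusted p under 0.05, against the same shares of all loci.

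Of 29 tested MEF2 cofactors and repressors, 1 was higher and 1 lower in He against Ctrl, 2 were higher in Ho against Ctrl, and 2 were higher and 1 lower in Ho against He at an unadjusted p under 0.05 (edgeR), against 2.79% to 6.3% of all loci in a direction. The smallest p of this list was that of Klf2 (ABG768_002025), with 54.9, 103 and 35.1 CPM in Ho, 28.0, 40.0 and 53.6 in He and 32.2, 25.1 and 31.1 in Ctrl. In Ho against Ctrl it differed by 1.13 on the log2 scale (standard error 0.39, adjusted p = 0.732 from edgeR). SMYD1 (ABG768_027096), a muscle histone methyltransferase needed for sarcomere assembly in zebrafish, had the pattern of pax7b. It stood at 46.9, 40.2 and 57.0 CPM in Ho, 72.4, 78.0 and 69.4 in He and 56.7, 45.05 and 46.1 in Ctrl, with He above both other groups without overlap. The log2 fold change was 0.57 in He against Ctrl and -0.61 in Ho against He (standard error 0.22 each), with adjusted p of 0.405 and 0.73 from edgeR. Of the 29 loci, 1 lay higher and 2 lower without overlap in He against Ctrl, where 6.28% of all loci lay higher. In Ho against He it was 1 each way, where 6.23% of all loci lay lower. The shares of all loci in the opposite directions are not given here, so the 2 lower and the 1 higher cannot be judged. carm1 (ABG768_002300) of the same list went the other way, with -1.37 in He against Ctrl and 1.32 in Ho against He, at low levels (0.57 CPM on average in He).

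Muscle genes downstream of the MyoD and MEF2 families had 30 tested loci, of which 4 were higher in He against Ctrl, 1 was higher in Ho against Ctrl and 3 were lower in Ho against He at an unadjusted p under 0.05 in edgeR, against 4.13%, 3.59% and 2.79% of all loci in the same comparison and direction. DES (ABG768_027784), which encodes the intermediate filament desmin, had 762, 819 and 940 CPM in Ho, 908, 752 and 882 in He and 522, 451 and 670 in Ctrl. Both mutant groups lay above Ctrl without overlap, with log2 fold changes of 0.63 in He and 0.62 in Ho (standard error 0.23 each) and adjusted p of 0.392 and 0.732 from edgeR. Of the 30 loci, He lay above Ctrl without overlap at 3, against 6.28% of all loci. Ho lay above Ctrl without overlap at 1 and below at 0, against 11.2% of all loci in either direction. A fast troponin I locus, TNNI2 (ABG768_018434), averaged 9402 ± 4451 CPM in Ho, 11839 ± 2496 in He and 5229 ± 2567 in Ctrl (SD, n = 3 each), with a log2 fold change of 1.18 in He against Ctrl (standard error 0.45, adjusted p = 0.405 from edgeR). A second locus named TNNI2 (MSTRG.5268) was far lower, with 1.02, 0.747 and 3.22 CPM in Ho, 1.63, 6.52 and 23.4 in He and 1.47, 3.14 and 1.34 in Ctrl. Its log2 fold change was 2.39 in He against Ctrl (standard error 0.91, adjusted p = 0.408 from edgeR) and -0.29 in Ho against Ctrl. Ctrl 1 and Ctrl 2, the fish with the lowest muscle marker sums, had the lowest DES values. Ctrl 3, whose sum (368141 CPM) was above those of all fish but He 1, had the highest DES value of the Ctrl fish (670 CPM). TNNI2 is itself among the summed markers, and the part of muscle content in these values was not tested.

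The loci most like pax7b and myog over the 9 fish belonged to other gene groups. Of 14754 other tested loci, those with the highest correlation of log2 CPM with pax7b were a parvalbumin beta-like gene (ABG768_019945, r = 0.95), CLN3 (ABG768_019708, r = 0.95) and MSTRG.11942, which matches protein kinase C beta (r = 0.94). For myog they were firrm (ABG768_014352, r = 0.96), RAB34 (ABG768_007275, r = 0.94) and Nlrc3 (ABG768_007084, r = 0.93). As the highest of 14754 values over only 9 fish, these correlations are a description and were not tested. Among myf5, myod1, myog and myf6, the nearest to pax7b was myog, at rank 1683, and of pax7b and the other MyoD family genes the nearest to myog was myf5, at rank 188. The mef2 loci and pax7a were not ranked.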

How the data were processed

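Poly(A) RNA of trunk muscle was sequenced by the authors in pairs of reads, filtered, aligned to ASM4018292v1 and quantified; the aligner, the counting tool and whether strand was used are not given in the sources used here. The authors deposited estimated counts per locus (94.3% whole numbers), TPM, FPKM and group means; the last 2 were not used here. No columns of other samples were found.

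Estimated counts were rounded to whole numbers, kept by filterByExpr (14755 loci), scaled by TMM and fitted with edgeR 4.0.16 (glmQLFit, robust, glmQLFTest; common dispersion 0.14) in R 4.3.3 over all 9 libraries, each genotype with its own mean. P-values were adjusted by Benjamini-Hochberg over all tested loci, and a call needed an adjusted p under 0.05. Alternatives were DESeq2 1.42.0, limma 3.58.1 on log2 of the authors' TPM plus 1 or 0.1, RLE or library-total scaling, all loci or those with 10 or more counts in all libraries, a fit to the 6 libraries of a comparison, a block for the replicate number, the study's criteria (adjusted p under 0.01, log2 fold change past 1 either way), and each library left out. Ratios used log2 of TPM plus 0.1; with 3 against 3 fish no pairwise exact test can go below 0.1, so genotypes were tested together. Standard errors were the log2 fold change over the square root of F. The scripts were tested on simulated data. Exact tests and tables used Python 3.11.15, pandas 2.3.3, numpy 2.4.6 and scipy 1.17.1.

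Loci were named as follows: all members, up to 3 loci of each list with the smallest unadjusted p (1 list is not reported here), and the 3 loci most like pax7b and myog; a match of BUB1 to the separate gene BUB1B was left out. The members and lists were chosen with earlier results of these data known. The muscle marker correlations and the library-total scaling of the family were added after the data had been seen. The neighbours compared by level were taken from the measured order of the same fish. Each library is 1 fish, so p-values measure the spread between fish.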

Additional observations from a re-analysis of the deposited data

How the results depend on the processing

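No member was called in any comparison under any alternative, with a lowest adjusted p of 0.128 in He against Ctrl, 0.319 in Ho against Ctrl and 0.428 in Ho against He. Among the alternatives, the share of all loci called was counted only for DESeq2, as given above, and for the study's criteria. Applied to the edgeR fit, those criteria gave 0.0% in each comparison. The study, with a tool it does not name, reported differentially expressed genes in each comparison under the same criteria. Over the alternatives the adjusted p ran from 0.157 to 0.777 for pax7b and from 0.278 to 0.792 for myog in He against Ctrl. Of 179 values per comparison, 167, 164 and 168 kept their direction in He against Ctrl, in Ho against Ctrl and in Ho against He, and 12, 15 and 11 turned, at 3, 6 and 4 members. The cause was not tested. With library totals, myod1 was -0.21 in He against Ctrl, -0.10 in Ho against Ctrl and 0.10 in Ho against He, mef2cb -0.20 in He against Ctrl, and mef2ca 0.038 in Ho against He. With TPM plus 1 and TPM plus 0.1, He against Ctrl gave -0.26 and -0.27 for myod1, -0.0057 and -0.0058 for mef2ca and -0.21 and -0.25 for mef2cb. Ho against Ctrl gave -0.026 and -0.052 for pax7b, -0.20 and -0.21 for myod1 and -0.0012 in both for mef2ca. Ho against He gave 0.064 and 0.067 for myod1 and 0.0045 in both for mef2ca.

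Leaving out each fish turned myod1 (-0.10 to 0.58) and mef2cb (-0.090 to 0.65) in He against Ctrl, myod1 (-0.22 to 0.47), myf5 (-0.90 to 0.29), myf6 (-0.0048 to 0.90) and myog (-0.093 to 0.83) in Ho against Ctrl, and pax7a (-0.64 to 0.078), myod1 (-0.38 to 0.15) and mef2cb (-0.10 to 0.42) in Ho against He. The unadjusted exact permutation p of the ratio of myf6 to myod1 was 0.0107 on CPM and 0.0214 without Ctrl 3 to 0.196 without Ctrl 1. It was 0.0357 without Ho 3 to 0.218 without He 1 for myf5 to myod1, and 0.154 to 0.625 for myog to PAX7. Correlated pairs numbered 1 with each fish left out and 0 on TPM. Loci that followed the muscle markers, 7 of 10, became 0 with library totals, 5 on deviations from the genotype means, and 4 (without Ctrl 1) to 7 with each fish left out.

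Replicate numbers are shared between genotypes, and the labels do not say whether same-numbered fish share anything else. Their deviations from the genotype means correlated with r from -0.257 to 0.259, against -0.329 to 0.305 for fish of different number. With 3 fish per genotype these values cannot exclude a shared batch. With the replicate block 0 members were called, as without it, and the median log2 fold change of the members was 0.64, 0.30 and -0.31 in He against Ctrl, in Ho against Ctrl and in Ho against He. At 3 fish per genotype, 27 of the 30 unadjusted 95% intervals of the members held 0, and loci with under about 10 counts per library could not be compared.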

Other observations

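Cell cycle genes, a sign of dividing cells, were low in all fish and differed most between Ho and He. Of 8 tested loci (11 matched), 7 had a log2 fold change below 0 in Ho against He, with a median of -0.98, and 3 had an unadjusted p under 0.05 in edgeR, against 2.79% of all tested loci lower. None passed the adjusted test in edgeR or DESeq2. mcm5 (ABG768_020057), a subunit of the replicative helicase, had 0.536, 0.574 and 0.47 CPM in Ho, 0.924, 2.47 and 2.10 in He and 0.578, 1.70 and 0.743 in Ctrl. Ho lay below He without overlap, with a log2 fold change of -1.79 and an unadjusted p of 0.00718 (edgeR). Of the 8 loci, 2 lay below He without overlap in Ho, against 6.23% of all loci. mcm2 (ABG768_001596), another subunit, had 0.59, 1.03 and 1.34 CPM in Ho, 1.42, 3.44 and 2.42 in He and 0.756, 1.97 and 0.817 in Ctrl, a log2 fold change of -1.31 in Ho against He. pcna (ABG768_002927), the sliding clamp of DNA replication, had 4.399, 8.27 and 5.91 CPM in Ho and 7.89, 13.4 and 11.5 in He, which overlapped. The median of the list in Ho against He ran from -1.38 to -0.73 when each fish was left out. It was -0.29 on log2 of TPM plus 1 and -0.63 on log2 of TPM plus 0.1.

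In He against Ctrl all 8 loci lay above 0 with a median of 0.55, which was 0.19 with 5 of 8 above 0 without He 3. On log2 of TPM plus 1 it was -0.02, where the median of all tested loci was -0.28, so the list lay 0.26 above that median. In Ho against Ctrl the median was -0.33, and 0.12 without Ctrl 2. In CPM, mki67 and BUB1 were lowest in He 1 and cdk1 in Ctrl 3, the fish with the highest muscle marker sums. By contrast pcna and mcm2 were lowest in Ho 1, and mcm5 in Ho 3. TOP2A in Ho 1 (0.697 CPM, 13 counts) and He 1 (0.711 CPM, 10 counts) was too close to order. The same held for ccna2 in Ho 3 (0.336 CPM) and He 1 (0.355 CPM), on 5 counts each. The part of muscle content in the levels of these genes was not tested.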
